A study of Mus musculus with 12 samples.

Results

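The double knockout of Hoxa9 and β-catenin (dKO) was compared with wild-type cells (WT) across 16503 autosomal genes, out of 51155 autosomal genes in the count table and 17063 genes tested on all chromosomes. Genes on X and Y were left out. RNA was sequenced from LSK cells, which lack lineage markers, carry Sca1 and Kit and hold the blood-forming stem cells and earliest progenitors. Every group was taken from primary transplanted animals, 6 weeks following tamoxifen, with 2 libraries each: WT, dKO, the single knockouts Hoxa9_KO and Bcat_KO (β-catenin), and WT_Prmt1, the wild type of a second experiment that also held Prmt1_KO. The titles call the groups KO and the genotype field calls them knockdown. The sources used here do not give the alleles, the Cre driver, the ages or any pooling of animals. Nothing says that the 2 libraries per group stem from different mice, so p-values may measure technical spread only. Libraries are named by group and S tag.

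Hoxa9 is a homeobox transcription factor that is active in blood stem and progenitor cells, where it binds DNA with Pbx and Meis partners, and it is lost as cells mature. β-catenin is the effector of canonical Wnt signalling: when its destruction complex is inactive it enters the nucleus and works through TCF and LEF factors. Stem cells at the top of the hierarchy divide rarely, whereas the multipotent and lymphoid-primed progenitors below them divide often. The series title ties both factors to DNA replication, genome integrity and stem cell function through Prmt1.

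Depth was 18893203 and 21234828 counts in the WT libraries and 26755289 and 25651223 in the dKO libraries. Levels are in CPM, counts scaled to a common library size. Differences are log2 changes ± SE over 2 libraries per group, and a call means an adjusted p under 0.05. Of the 16503 genes, 1425 (8.63%) rose and 1297 (7.86%) fell in dKO, so 16.5% were called in all. Of the genes that rose, 616 changed at least 2-fold (1 on the log2 scale), against 386 of those that fell. Every dKO library was above every WT library for 29.6% of the genes and below for 29.1%. Between the wild-type groups WT_Prmt1 and WT, 574 genes (3.48%) were higher and 535 (3.24%) lower in WT_Prmt1, 6.72% in all. Without WT S2 the dKO calls numbered 1356, without dKO S7 1474 and without WT S1 1511.

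The WT libraries were female-typed and the dKO libraries male-typed. Xist, transcribed from the inactive X, gave 0.619 and 0.418 CPM in dKO compared with 182 and 163 in WT. The Y-linked gene Ddx3y gave 65.0 and 69.8 CPM in dKO compared with 1.88 and 2.87 in WT, and 61.4 and 66.2 in Hoxa9_KO. For autosomal genes too, the genotype and the sex of the cells cannot be told apart in dKO against WT, while dKO and Hoxa9_KO were both male-typed. Bcat_KO gave 62.3 and 60.6 CPM of Ddx3y but also 11.2 and 21.9 CPM of Xist, more than dKO. In bulk RNA, fewer cells of a type and less RNA per cell cannot be told apart.

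Hoxa9 mRNA was low in dKO and Ctnnb1 mRNA was reduced. Hoxa9 (ENSMUSG00000038227, GRCm38 chromosome 6, 52223100 to 52231089, minus strand) stood at 58.7 and 59.9 CPM in the WT pair, against 9.21 and 8.92 in dKO, and the groups did not overlap. It fell by 2.71 ± 0.17 (adjusted p = 4.78e-06) and was at 12.2 and 8.36 CPM in Hoxa9_KO. Ctnnb1 (ENSMUSG00000006932, GRCm38 chromosome 9, 120929216 to 120960507, plus strand), the gene for β-catenin, stood at 227 and 235 CPM in dKO compared with 315 and 342 in WT and fell by 0.51 ± 0.07 (0.000746), so most of its mRNA was still counted. It was also lower in dKO than in Hoxa9_KO (-0.63 ± 0.07, 0.00672) and than in Bcat_KO (-0.23 ± 0.07, 0.0329). The Bcat_KO libraries still held 276 and 267 CPM of Ctnnb1. Counts cover whole genes, and the sources used here do not give the exons removed by the alleles. Ctnnb1, Kif11, Cdkn1a, Neo1, Clca3a1, Bcat1, Cd27, Flt3, Hspa1a and Pax5 overlap annotated genes on the opposite strand. So do others named below, among them Rag2, Vpreb1, Vpreb3, Gfra1, Matn4, Wwtr1 and Flrt1. The sources used here do not state how strand was handled in counting.

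Genes that run mitosis fell together in dKO. Of 52 tested, 48 fell, none rose, and the median change was -1.29, against 0.007 over all autosomal genes. The promoters of 3 of the members with the smallest p are shown first because they hold the letters counted below: the 250 bases before the RefSeq start, on GRCm38.p6, 5′ to 3′ on the gene's strand. Capitals mark the CHR letters (TTTGAA or TTCGAA, on either strand), a cell cycle element, and the CCAAT box (CCAAT on either strand).
Kif11 (chr19:37376132-37376381, plus strand): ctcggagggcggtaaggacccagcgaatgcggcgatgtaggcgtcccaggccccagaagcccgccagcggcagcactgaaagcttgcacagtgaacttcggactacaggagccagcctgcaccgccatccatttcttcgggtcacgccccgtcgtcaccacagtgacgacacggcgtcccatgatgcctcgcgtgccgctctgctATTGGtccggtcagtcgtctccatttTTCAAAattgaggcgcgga
Bub1b (chr2:118597961-118598210, plus strand): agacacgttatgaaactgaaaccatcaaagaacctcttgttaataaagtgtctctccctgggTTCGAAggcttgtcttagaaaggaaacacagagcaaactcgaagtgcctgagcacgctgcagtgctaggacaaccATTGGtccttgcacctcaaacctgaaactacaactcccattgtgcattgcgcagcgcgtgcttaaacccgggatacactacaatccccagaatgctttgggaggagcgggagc
Prc1 (chr7:80294201-80294450, plus strand): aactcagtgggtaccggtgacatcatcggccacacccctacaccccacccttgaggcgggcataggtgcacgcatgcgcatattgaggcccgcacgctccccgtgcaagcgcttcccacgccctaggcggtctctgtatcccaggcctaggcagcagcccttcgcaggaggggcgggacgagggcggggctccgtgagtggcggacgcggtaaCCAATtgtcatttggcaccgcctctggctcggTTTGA
CHR letters were in 35 of the 46 windows held for 44 of the listed genes (76.1%), against 19.2% of all 32851 windows of this length (250 bases before to 50 after the start) and 14.2% of those of the tested autosomal genes. CCAAT letters were in 71.7% of the list's windows and 37.4% of all. Among the genes that fell in dKO 21.8% of windows held CHR letters, and 12.5% among the genes that rose. In Kif11 the CHR letters began at position -19 and the CCAAT letters at -45 from the start, and in Prc1 they began at -5 and -37, so the last CHR letter of Prc1 lies past the printed bases. In Bub1b the printed CHR letters began at -188, before the CCAAT letters at -113, and another CHR match lies past the printed bases. A match describes these letters and is not evidence of binding.

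Kif11 (ENSMUSG00000012443, GRCm38 chromosome 19, 37376403 to 37421859, plus strand), the motor that pushes spindle poles apart, was at 142 and 138 CPM in the WT libraries and 59.6 and 44.8 CPM in dKO. Both dKO libraries lay well below both WT libraries, and dKO S7 was the lowest. Kif11 fell by 1.43 ± 0.14 (adjusted p = 8.25e-05). Foxm1, the transcription factor that drives many mitotic genes, was at 68.04 and 70.1 CPM in the WT pair, against 31.8 and 24.3 in dKO and fell by 1.30 ± 0.13 (8.27e-05). Incenp, the scaffold of the chromosomal passenger complex, fell by 1.15 ± 0.11 (9.16e-05), and the checkpoint kinase Bub1b by 1.43 ± 0.14 (0.000101). The kinetochore protein Cenpf was at 15.6 and 10.3 CPM in dKO compared with 40.5 and 41.4 in WT and fell by 1.66 ± 0.19 (0.000204). The 4 members that did not pass, named after their values were seen, were Mki67 (-0.60), Kif18a (-0.72), Kif20b (-0.69) and the securin gene Pttg1 (0.32). The list summed to 4084 and 4378 CPM in WT, 2241 and 1513 in dKO, 3173 and 3795 in Hoxa9_KO, and 4856 and 4959 in WT_Prmt1, while Bcat_KO held 4312 and 4252. The 2 dKO libraries were the lowest of these 10 and differed from each other more than the WT libraries did. Prmt1_KO held 2299 and 2269 CPM, close to dKO S6, so a low sum was not limited to dKO. Between 39 and 47 members fell when any 1 of the 4 libraries was left out.

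**Figure D1:**
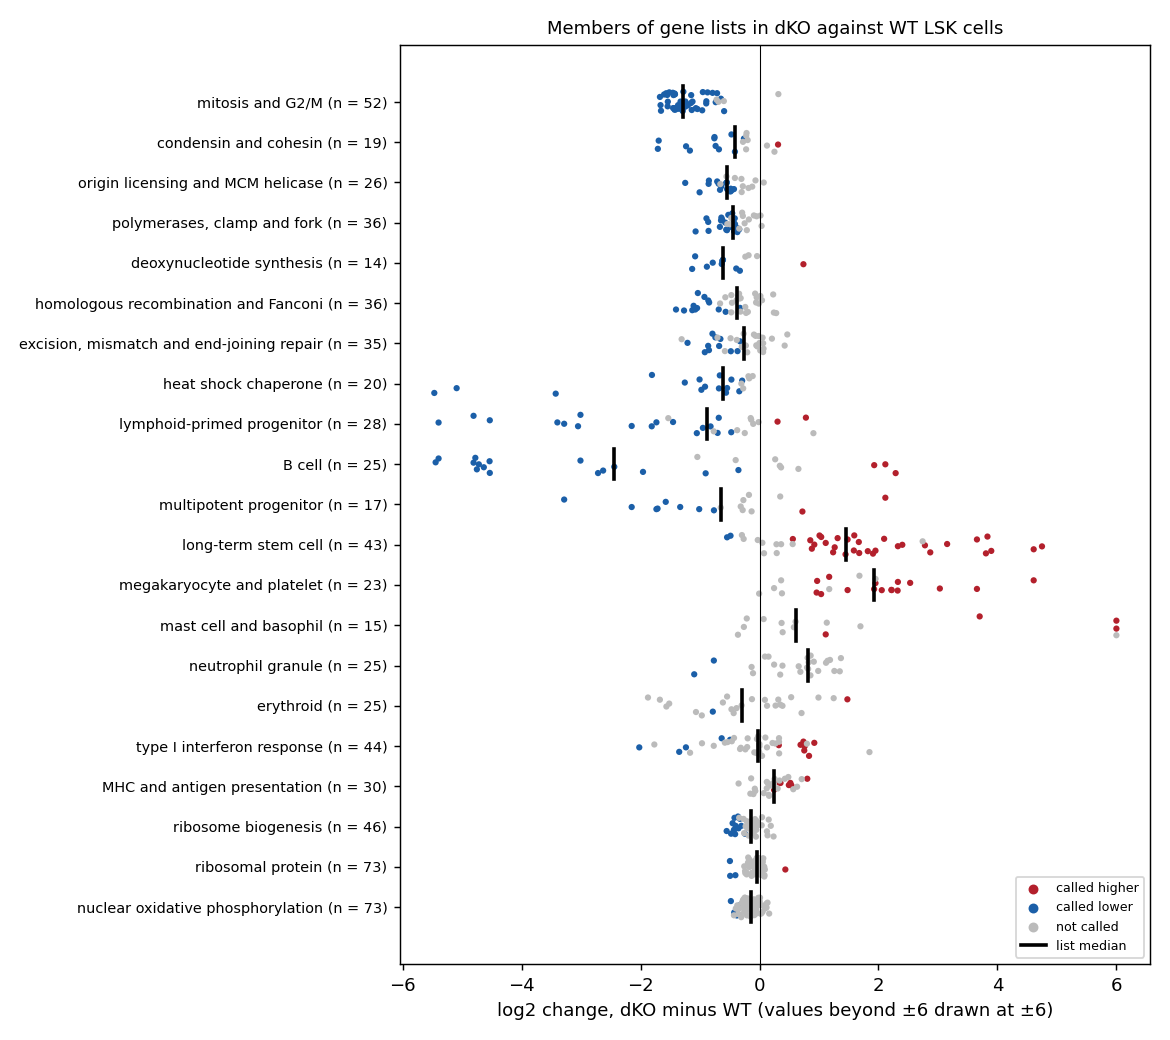
Each point is a gene of the named list, placed by its log2 change in dKO minus WT (2 libraries each), red where called higher, blue where called lower and grey where not called; black bars are list medians. Mitotic genes sit almost wholly to the left (median -1.29) and stem cell genes mostly to the right (median 1.45), while ribosomal protein genes lie close to 0.

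Condensin and cohesin, the rings that shape and hold sister chromatids, fell in part. Of 19 genes 11 fell and 1 rose, with a median of -0.41. Esco2, which acetylates cohesin in S phase, went from 28.4 and 30.6 CPM in WT to 10.1 and 8.16 in dKO (-1.70 ± 0.17, adjusted p = 0.000111), and the condensin subunit Ncaph fell by 1.23 ± 0.15 (0.000334). Cdca5, which protects cohesin, fell by 1.17 ± 0.14 (0.000249). The cohesin-release factor Wapl was the member that rose, by 0.31 ± 0.09 (0.0397). That call was lost when any 1 library was left out (0.135 to 0.163), and the change was -0.0065 (0.969) with WT_Prmt1 as control.

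The machinery that loads and fires replication origins was lower in dKO by smaller amounts. In the licensing and MCM helicase list 16 of 26 genes fell and none rose (median -0.55), and 10 fell without WT S2. All 6 subunits Mcm2 to Mcm7 of the replicative helicase were among them. Mcm6 was at 716 and 721 CPM in the WT libraries and 547 and 519.6 CPM in dKO and fell by 0.43 ± 0.06 (adjusted p = 0.000816). The dKO libraries were close together and below both WT libraries. Mcm4 fell by 0.56 ± 0.08 (0.000567), Mcm2 by 0.49 ± 0.07 (0.00104), and Gmnn, the inhibitor that limits licensing to once per cycle, by 0.85 ± 0.12 (0.000955). Origin recognition subunits Orc1 to Orc6 were all among the 10 members not called. The Mcm6 promoter is shown because it holds E2F letters (TTTCCCGC, TTTGGCGC or TTTCGCGC on either strand), marked in capitals with its CCAAT letters.
Mcm6 (chr1:128359706-128359955, minus strand): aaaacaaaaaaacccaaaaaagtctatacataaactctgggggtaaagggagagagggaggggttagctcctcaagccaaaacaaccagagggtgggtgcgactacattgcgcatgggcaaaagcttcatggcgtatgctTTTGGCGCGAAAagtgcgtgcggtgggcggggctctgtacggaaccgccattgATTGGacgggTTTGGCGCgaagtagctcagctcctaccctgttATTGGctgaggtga
E2F letters were in 10 of the 25 licensing windows (40%), in 1.84% of all windows, in 3.14% of those of the tested autosomal genes and in 7.03% of those of the genes that fell. Mcm6 held 3 matches, and those at -110 and -106 overlap. The Mcm2 window, not printed here, held no E2F match.

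At the replication fork 23 of 36 genes fell and none rose (median -0.45). That count was 5 without WT S2, 8 without dKO S7 and 12 without WT S1. Pcna, the sliding clamp, was at 679.8 and 659 CPM in the WT pair, against 376 and 346 in dKO, and its groups were far apart relative to their spread. It fell by 0.89 ± 0.07 (adjusted p = 1.49e-05), and the polymerase δ catalytic subunit Pold1 by 0.65 ± 0.07 (0.000222). The histone chaperone Asf1b fell by 1.07 ± 0.16 (0.00125), and Pola2 of the primase complex by 0.52 ± 0.08 (0.00164). Deoxynucleotide synthesis genes fell in 10 of 14 cases (median -0.62). Dck, which salvages deoxycytidine, was at 55.2 and 50.6 CPM in dKO compared with 107 and 117 in WT and fell by 1.08 ± 0.12 (0.000201). The ribonucleotide reductase subunit Rrm1 fell by 0.63 ± 0.09 (0.000656) and thymidylate synthase Tyms by 0.79 ± 0.12 (0.00103). The only riser was Samhd1, which degrades deoxynucleotides. It was at 133 and 127 CPM in the WT libraries and 233 and 201 CPM in dKO and rose by 0.74 ± 0.11 (0.0012), a call lost with WT_Prmt1 as the control (adjusted p = 0.322). Of 36 replication-dependent histone genes 10 fell and none rose (median -1.13), with 3 to 9 falling when 1 library was left out. The called share of the histone genes was 27.8%, against 16.5% over all genes. These genes have near-identical copies and their mRNAs lack a standard poly(A) tail, so their counts are uncertain.

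**Figure D2:**
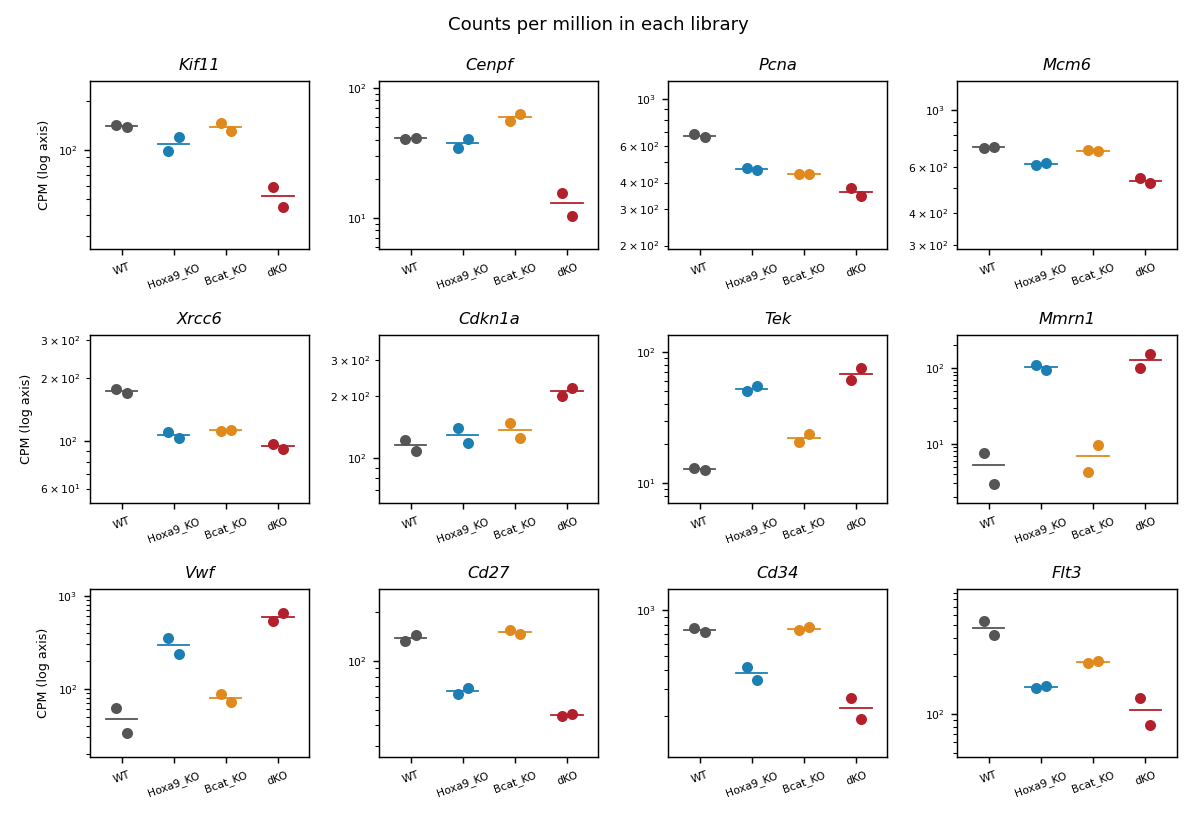
CPM on a log axis for 12 genes; each point is a library, coloured by group, and the line is the group mean of 2 libraries. The dKO libraries are lowest for Kif11, Cenpf, Pcna, Mcm6, Xrcc6, Cd27 and Cd34 and highest for Cdkn1a, while Tek and Mmrn1 are high in both dKO and Hoxa9_KO.

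DNA repair genes were also lower where they changed. The called share was 36.1% for homologous recombination and Fanconi genes, against 16.5% over all genes. It was 31.4% for excision, mismatch and end-joining repair. In homologous recombination and the Fanconi pathway 13 of 36 genes fell and none rose (median -0.37), but only 3 fell without WT S2, 5 without dKO S7 and 6 without WT S1. The nuclease gene Eme1 fell by 1.40 ± 0.26 (adjusted p = 0.00359) and the helicase gene Blm by 0.85 ± 0.16 (0.00483), and both calls were lost without WT S2 (0.0515 and 0.0505). Excision, mismatch and end-joining repair gave 11 lower and none higher of 35 (median -0.27), and 5 or 6 without any 1 library. Xrcc6, the Ku70 end-binding subunit, was at 177 and 169 CPM in the WT pair, against 97.8 and 92.1 in dKO and fell by 0.86 ± 0.08 (4.54e-05). Parp1, which senses strand breaks, fell by 0.74 ± 0.07 (7.26e-05), and the lesion sensor Xpc by 0.79 ± 0.08 (8.58e-05). Among 16 genes of the ATR and ATM checkpoint 4 fell and none rose, a share of 25% against 16.5% over all genes, but 1 fell without dKO S7 and 2 without WT S2. Wee1, the kinase that restrains mitotic entry, fell by 0.74 ± 0.13 (0.00333), a call lost with WT_Prmt1 as control (0.145). Chek1 fell by 0.91 ± 0.20 (0.00979), lost without WT S2 (0.0918) or dKO S7 (0.0533).

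Genes of cycle entry and arrest moved in both directions, while the CDK inhibitor genes Cdkn1a and Cdkn1c rose. Cdkn1a (ENSMUSG00000023067, GRCm38 chromosome 17, 29090976 to 29100727, plus strand), which encodes p21, was at 201 and 220.1 CPM in dKO compared with 122 and 109 in WT, with both dKO libraries above both WT libraries. It rose by 0.87 ± 0.13 (adjusted p = 0.000866). Cdkn1c, the p57 inhibitor found in quiescent stem cells, was at 6.96 and 7.03 CPM in the WT libraries and 14.6 and 19.97 CPM in dKO and rose by 1.30 ± 0.22 (0.00198). The cell cycle factor E2f2 fell from 67.6 and 83.2 CPM to 25.7 and 20.3 (-1.71 ± 0.17, 8.25e-05), and cyclin D3 (Ccnd3) fell by 1.10 ± 0.13 (0.000222). Over the 31 genes of cycle entry and arrest 5 rose and 6 fell, 35.5% against 16.5% over all genes. Rising genes numbered 2 without dKO S7 and 3 without WT S1 or WT S2, and falling genes 3 without WT S1 or WT S2 and 9 without dKO S6. Of 23 p53 targets 3 rose and 6 fell (median 0.10), 39.1% against 16.5% over all genes. The rising members were Cdkn1a, Ei24 and Ccng1, the last named after its value was seen. Only 1 rose without any single library, and 3 fell without WT S1, WT S2 or dKO S7. The Ei24 call was lost without any single library (0.101 to 0.182) and with WT_Prmt1 as control (0.0868). The falling members included the mitotic gene Gtse1 (-1.44 ± 0.24, 0.00226), the antiproliferative factor Btg2 (-0.68 ± 0.12, 0.00307) and the kinase gene Plk2 (-0.72 ± 0.15, 0.00768, but 0.0704 without WT S1). Mdm2, the p53 ubiquitin ligase, did not pass (0.07).

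Long-term stem cell genes rose in dKO. Of 43 tested, 31 rose and 2 fell, with a median of 1.45. Between 29 and 35 rose when any 1 library was left out. Tek, the angiopoietin receptor of quiescent stem cells, was at 13.1 and 12.6 CPM in the WT pair, against 60.7 and 75.04 in dKO and rose by 2.40 ± 0.14 (adjusted p = 3.34e-06). Both dKO libraries stood several times above WT. Pdzk1ip1 rose by 1.67 ± 0.12 (1.49e-05). Neo1 (ENSMUSG00000032340, GRCm38 chromosome 9, 58874687 to 59036441, minus strand), the neogenin receptor, was at 61.2 and 94.1 CPM in dKO compared with 4.24 and 1.57 in WT, a rise of 4.75 ± 0.45 (7.99e-05). Txnip, which binds thioredoxin, and the stem cell transcription factor Hlf were the 2 that fell (-0.49 ± 0.09, 0.00318 and -0.55 ± 0.15, 0.0299). Hlf did not pass without dKO S6 (0.159), without WT S1 (0.133) or without WT S2 (0.102). Against WT_Prmt1 both changes were positive (0.38 and 0.42). Of the same list 20 genes were lower and 5 higher in WT_Prmt1 than in WT, so its level also differed between the wild-type groups.

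Megakaryocyte and platelet genes moved with them: 16 of 23 rose and none fell (median 1.93). Vwf, the clotting factor that also marks platelet-biased stem cells, was at 61.5 and 33.1 CPM in the WT libraries and 532 and 659 CPM in dKO. Both dKO libraries were far above both WT libraries. Vwf rose by 3.66 ± 0.30 (2.81e-05). The platelet integrin Itgb3 was at 17.5 and 18.97 CPM in the WT pair, against 84.4 and 97.9 in dKO and rose by 2.32 ± 0.14 (3.34e-06), P-selectin (Selp) rose by 2.33 ± 0.15 (5.54e-06), and Zfpm1, the cofactor of GATA proteins, by 1.04 ± 0.08 (1.59e-05). Selp, Vwf and Mmrn1 are among the genes that stand on both this list and the stem cell list. Summed over the list, dKO held 3151 and 2966 CPM, WT 1071 and 1041, and WT_Prmt1 639 and 620. Hoxa9_KO held 2182 and 2161 CPM, Prmt1_KO 2214 and 2197, and Bcat_KO 1435 and 1442, so a raised sum was not limited to dKO. Against Hoxa9_KO 2 of the 23 genes were higher in dKO and 0 lower, and against Bcat_KO 17 were higher and 2 lower. Here 12 genes were lower and 1 higher in WT_Prmt1 than in WT.

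Adhesion and niche genes rose in 10 of 28 cases and fell in 4, a called share of 50% against 16.5% over all genes. The stem cell adhesion molecule Esam went from 27.98 and 26.4 CPM to 76.5 and 87.7 (1.59 ± 0.14, adjusted p = 3.72e-05), the laminin-binding integrin Itga6 rose by 1.65 ± 0.14 (2.94e-05) and Jam2 by 4.07 ± 0.41 (0.000107). The chemokine receptor Cxcr4 fell by 0.57 ± 0.15 (0.0214), a call lost without WT S1 (0.193), without dKO S7 (0.154) and with WT_Prmt1 as control (0.317).

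Most of the called genes of multipotent and of lymphoid-primed progenitors were lower in dKO. Among 17 multipotent progenitor genes 8 fell and 2 rose (median -0.65). Cd27 (ENSMUSG00000030336, GRCm38 chromosome 6, 125232622 to 125237010, minus strand), a surface receptor gained as stem cells become progenitors, was at 45.8 and 46.9 CPM in dKO compared with 133 and 144 in WT and fell by 1.58 ± 0.08 (adjusted p = 8.20e-07). Cd34 was at 765 and 715 CPM in the WT libraries and 260.4 and 191 CPM in dKO and fell by 1.71 ± 0.14 (2.32e-05). Flt3, the cytokine receptor of lymphoid-primed cells, was at 537 and 421 CPM in the WT pair, against 133 and 82.9 in dKO and fell by 2.15 ± 0.18 (3.72e-05). In each of the 3 genes every dKO library was below every WT library. Ccnd1 rose by 0.72 ± 0.17 (0.014), but not without WT S1 (0.0634), WT S2 (0.0778) or dKO S7 (0.107), and the other riser was Ighm, described below. Of 28 lymphoid-primed genes 17 fell and 2 rose (median -0.89). Dntt, the enzyme that adds bases at antigen receptor joints, was at 174 and 94.7 CPM in dKO compared with 1381 and 1232 in WT and fell by 3.28 ± 0.22 (6.66e-06). Cnn3 was at 92.04 and 94.6 CPM in the WT libraries and 14.02 and 8.502 CPM in dKO and fell by 3.05 ± 0.19 (4.71e-06), and Wfdc17 fell by 3.40 ± 0.30 (4.62e-05).

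Early B-lineage genes fell by large factors, while immunoglobulin transcripts rose. Of 25 B cell genes 16 fell and 3 rose (median -2.44). Pax5 (ENSMUSG00000014030, GRCm38 chromosome 4, 44524757 to 44710487, minus strand), the factor that commits cells to the B lineage, was at 64.1 and 86.1 CPM in the WT pair, against 4.49 and 1.21 in dKO and fell by 4.72 ± 0.48 (adjusted p = 0.000111). The recombinase gene Rag1 was at 1.86 and 0.835 CPM in dKO compared with 36.5 and 39.1 in WT and fell by 4.81 ± 0.54 (0.000199), and Rag2 fell by 5.40 ± 0.90 (0.00213). Igll1, the surrogate light chain, was at 141 and 196 CPM in the WT libraries and 6.81 and 0.911 CPM in dKO and fell by 5.45 ± 0.68 (0.000377). In all of these the dKO libraries were below both WT libraries and dKO S7 was lower than dKO S6. Vpreb3 fell by 4.63 ± 0.53 (0.000222). The near-identical pair Vpreb1 and Vpreb2, whose reads may be shared, gave changes of -4.75 ± 0.64 (0.000594) and -4.54 ± 0.68 (0.00109). Jchain, which joins secreted antibody, was at 460.3 and 962 CPM in the WT pair, against 4717 and 2234 in dKO and rose by 2.29 ± 0.37 (0.00165). The heavy chain constant gene Ighm was at 24282 and 12111 CPM in dKO compared with 2552 and 5845 in WT and rose by 2.12 ± 0.41 (0.00477). Immunoglobulin genes held 0.645% and 1.35% of all counts in WT, 8.34% and 3.20% in dKO, 2.98% and 4.37% in Hoxa9_KO, and 1.07% in each WT_Prmt1 library, while Bcat_KO held 1.39% and 1.90%. The dKO libraries differed from each other more than 2-fold, and dKO S6 was the highest of these 10. Of 155 variable segments 35 rose and 4 fell, where 8.63% of all genes rose and 7.86% fell. Segments share sequence, so single ones are uncertain. With all immunoglobulin genes left out, an alternative chosen after seeing the data, 2885 genes were called in dKO against WT. The part of antibody-secreting cells in these values was not tested.

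**Figure D3:**
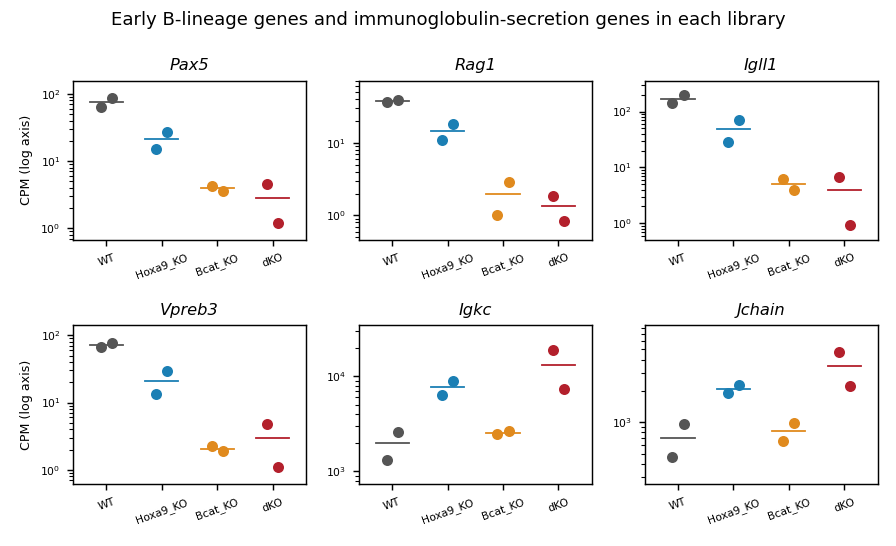
CPM on a log axis for 4 early B-lineage genes, an immunoglobulin light chain gene and Jchain; points are libraries and lines are means of 2. Pax5, Rag1, Igll1 and Vpreb3 are far lower in dKO and Bcat_KO than in WT, whereas Igkc and Jchain are highest in dKO S6.

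Other blood lineages moved less. The called share was 26.7% for mast cell and basophil genes and 37.5% for dendritic cell genes, against 16.5% over all genes. It was 15.8% for monocyte and macrophage genes and 8% for erythroid and for neutrophil granule genes. Of 15 mast cell and basophil genes 4 rose and none fell. The granule protease Cma1 was at 0.105 and 0.0925 CPM in the WT libraries and 9.45 and 8.12 CPM in dKO and rose by 6.41 ± 0.98 (adjusted p = 0.00169). Tpsb2, a mast cell tryptase with near-identical copies, had 0 counts in both WT libraries and 13.7 and 8.996 CPM in dKO. That was 154-fold above a floor of 3 counts over the group. The Tpsb2 call (adjusted p = 0.00405) was lost with limma-voom (0.119). The floor covers counting error only. Both mates of a pair appear to have been counted, so 3 counts stand for fewer fragments and the floor may be too low. The IgE receptor chain Fcer1a rose by 3.70 ± 0.56 (0.00118) and Gata2, shared with stem cells, by 1.11 ± 0.11 (8.27e-05). Of 25 neutrophil granule genes 2 fell, Gfi1 (-1.10 ± 0.17, 0.0015) and Csf3r (-0.77 ± 0.12, 0.00113, but 0.0537 with WT_Prmt1 as control), and none rose. Yet 21 of the 25 changes on that list were above 0 (median 0.81). The list summed to 2852 and 1286 CPM in WT and 3768 and 2364 in dKO, with the groups overlapping. Of 25 erythroid genes 1 rose and 1 fell, and of 19 monocyte and macrophage genes 2 rose and 1 fell. Among 35 T, NK and innate lymphoid genes 4 rose and 4 fell, 22.9% against 16.5% over all genes, and 1 rose without WT S1 or dKO S6 and 2 without WT S2. Klrb1c, the NK1.1 receptor, was at 4.65 and 7.36 CPM in the WT pair, against 20.6 and 25.5 in dKO and rose by 1.94 ± 0.37 (0.00431), and the T cell kinase Lck fell by 1.45 ± 0.15 (9.97e-05). Of 16 dendritic cell genes 4 fell and 2 rose (8 fell without dKO S6), and 12 were higher in WT_Prmt1 than in WT.

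The genes of the sort itself were present in all 4 libraries. Kit was at 359 and 414 CPM in dKO compared with 271 and 269 in WT and rose by 0.52 ± 0.11 (adjusted p = 0.00937), a call lost without WT S1 (0.0501) or dKO S7 (0.0907). Ly6a, which encodes Sca1, was at 93.2 and 103 CPM in the WT libraries and 199 and 155 CPM in dKO and rose by 0.85 ± 0.12 (0.000883). The T cell gene Cd3e was at 0.209 and 0.3702 CPM in the WT pair, against 0.387 and 0.152 in dKO and was not called. Of 22 endothelial and stromal genes 3 rose and 3 fell, 27.3% against 16.5% over all genes. The sialomucin Emcn, found on endothelium and stem cells, was at 3.097 and 3.302 CPM in dKO compared with 17.1 and 18.7 in WT and fell by 2.48 ± 0.19 (1.77e-05). Col1a2 rose by 2.95 ± 0.38 (0.000463), but its change was -3.22 against WT_Prmt1 and -2.24 against both wild-type groups. Receptor genes of the olfactory and vomeronasal organs, not normally transcribed in blood, summed to 180 and 135 CPM in WT and 90.8 and 85.9 in dKO. None of the 56 tested was called, and their median change was -0.95. Their part in the results for low genes was not tested.

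Where Hox genes were called, Hoxb members were higher and Hoxa members lower. Of 16 tested Hoxa and Hoxb genes 7 rose, all in the Hoxb cluster, and 2 fell, both in the Hoxa cluster. That called share was 56.25%, against 16.5% over all genes. Only 3 rose without WT S2 or without dKO S7, and 4 without dKO S6. Hoxb8 (ENSMUSG00000056648, GRCm38 chromosome 11, 96281905 to 96285315, plus strand) was at 1.67 and 0.7404 CPM in the WT libraries and 31.6 and 50.4 CPM in dKO. The WT level was close to absence and both dKO libraries were far above it. Hoxb8 rose by 5.09 ± 0.50 (adjusted p = 0.000142). It was at 46.7 and 26.2 CPM in Hoxa9_KO and was not called in dKO against Hoxa9_KO (0.17 ± 0.40, 0.927). Hoxb6 was at 1.36 and 0.7404 CPM in the WT pair, against 9.02 and 13.2 in dKO and rose by 3.40 ± 0.50 (0.000921), and Hoxb5, used as a marker of long-term stem cells, rose by 2.87 ± 0.44 (0.00126). Both overlap antisense transcripts. Hoxa4 fell by 2.18 ± 0.66 (0.0444), a call lost when any 1 library was left out (0.0647 to 0.299). Hoxa10 (-0.14), Hoxa5 (-0.12) and Hoxa7 (0.11), neighbours of Hoxa9 named after their values were seen, were not called. Within 2 Mb of Hoxa9 20.7% of 29 tested genes were called, and 10.7% of 56 within 2 Mb of Ctnnb1. Among Hox partners and reported Hoxa9 targets 8 of 24 rose and 6 fell, 58.3% against 16.5% over all genes. Pbx3 went from 7.58 and 7.03 CPM to 31.3 and 34.7 (2.17 ± 0.21, 8.10e-05).

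Of 36 Wnt pathway genes 6 rose, and Ctnnb1 was the one that fell. The called share of 19.4% was close to the 16.5% over all genes, and 3 rose without WT S1 or dKO S7. The receptor Fzd8 was at 25.2 and 40.2 CPM in dKO compared with 1.99 and 2.22 in WT and rose by 3.95 ± 0.47 (adjusted p = 0.000264). Apc2, related to the destruction complex scaffold, was at 1.57 and 1.39 CPM in the WT libraries and 6.89 and 12.4 CPM in dKO and rose (0.00295), and Wls, which carries Wnt proteins to the surface, rose by 0.61 ± 0.11 (0.0034). Of 30 TCF and LEF factors and Wnt targets 7 fell and 1 rose, a share of 26.7% against 16.5% over all genes. The falling count was 2 without dKO S7 and 4 without WT S2, and 4 rose without dKO S6. Lef1 was at 10.9 and 12.1 CPM in the WT pair, against 1.01 and 0.228 in dKO and fell by 4.22 ± 0.80 (0.00437). Birc5, also a mitotic gene, fell by 1.13 ± 0.18 (0.00185). The feedback gene Axin2 was at 0.426 and 1.21 CPM in dKO compared with 0.314 and 0.139 in WT and was not called. Prmt1 (ENSMUSG00000109324, GRCm38 chromosome 7, 44975989 to 44986568, minus strand), the arginine methyltransferase named in the title, was at 322 and 334 CPM in the WT libraries and 255 and 259 CPM in dKO, and WT_Prmt1 held 283 and 292 CPM. It fell by 0.35 ± 0.07 (0.00419), but not without WT S2 (0.0787) or with WT_Prmt1 as the control (0.0973). Of 12 genes of its family and partners Btg2 was the only other one called. That share of 16.7% was close to the 16.5% over all genes.

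Chromatin regulators were split, with a called share of 29.7% against 16.5% over all genes. Of 37 Polycomb, trithorax and DNA methylation genes 5 rose and 6 fell, against 3 and 3 without WT S2. Ezh2, the Polycomb methyltransferase of dividing cells, was at 225 and 239.7 CPM in the WT pair, against 131 and 95.8 in dKO and fell by 1.04 ± 0.13 (adjusted p = 0.000457). Its relative Ezh1 was at 65.6 and 78.4 CPM in dKO compared with 36.3 and 40.4 in WT and rose by 0.91 ± 0.12 (0.000592), so the pair moved in opposite directions. Uhrf1, which guides maintenance methylation behind the fork, fell by 1.28 ± 0.12 (8.27e-05), and Mllt3 rose by 1.31 ± 0.17 (0.000457).

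Heat shock chaperones fell. Of 20 genes 15 fell and none rose (median -0.62), and 13 or 14 fell without any 1 library. Hspa1b and Hspa1a are neighbouring, near-identical genes for inducible Hsp70, and their promoters are shown because they share the heat shock letters (GAANNTTC or TTCNNGAA, on either strand). Capitals mark these and CCAAT letters, in the 250 bases before the start.
Hspa1b (chr17:34959239-34959488, minus strand): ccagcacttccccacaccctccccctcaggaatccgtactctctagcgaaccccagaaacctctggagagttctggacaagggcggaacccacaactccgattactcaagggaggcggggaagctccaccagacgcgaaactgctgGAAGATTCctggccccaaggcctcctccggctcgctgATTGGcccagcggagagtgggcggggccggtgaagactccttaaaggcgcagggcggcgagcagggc
Hspa1a (chr17:34972157-34972406, minus strand): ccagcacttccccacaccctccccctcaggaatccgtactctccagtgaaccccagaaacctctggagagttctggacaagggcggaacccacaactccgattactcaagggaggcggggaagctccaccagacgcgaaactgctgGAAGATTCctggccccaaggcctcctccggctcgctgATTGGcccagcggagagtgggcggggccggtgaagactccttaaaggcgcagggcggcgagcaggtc
The 2 sequences differ at 3 of 250 positions, and in both the heat shock letters begin at -104. Such letters were in 11 of 22 windows of the list (50%), in 15.1% of all windows and in 12.1% of those of the tested autosomal genes. Among the genes that fell in dKO 12.8% of windows held them, and 11.1% among the genes that rose. The long-term stem cell list, most of which rose, held them in 11 of 35 windows (31.4%). Hspa1b was at 927 and 773 CPM in the WT libraries and 24.004 and 14.4 CPM in dKO and fell by 5.47 ± 0.22 (adjusted p = 2.11e-07). Hspa1a was at 350.3 and 284 CPM in the WT pair, against 10.996 and 7.59 in dKO and fell by 5.09 ± 0.22 (3.11e-07), and reads may be split between them. Hspa8, the constitutive Hsp70 chaperone, was at 2407 and 2241 CPM in dKO compared with 4527 and 4821 in WT and fell by 1.01 ± 0.06 (2.46e-06), and Hsp90aa1 fell by 0.92 ± 0.08 (5.61e-05). Heat shock genes also respond to cell handling. Of 27 immediate early and handling genes 5 rose and 4 fell, 33.3% against 16.5% over all genes. Nr4a2 was at 9.88 and 6.25 CPM in the WT libraries and 36.3 and 48.7 CPM in dKO and rose by 2.40 ± 0.32 (0.000567). Dusp2 fell by 0.92 ± 0.12 (0.000462). The part of handling was not tested.

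Stress, immune and growth genes showed smaller or mixed changes. The called share was 55.2% for amino acid stress genes, against 16.5% over all genes. It was 33.3% for cytokine receptor and SOCS genes, 33.3% for glycolysis genes and 28.3% for ribosome biogenesis genes. Of 29 amino acid stress genes 7 rose and 9 fell. The falling count was 3 without WT S1 and 5 without WT S2 or dKO S7, and 4 rose without WT S2 or dKO S7. The called genes included Phgdh, the first enzyme of serine synthesis (-0.75 ± 0.06, adjusted p = 3.19e-05), and the growth inhibitor Ddit4 (0.83 ± 0.10, 0.000371). Of 44 type I interferon genes 7 rose and 5 fell, but 4 rose without dKO S7, 2 fell without WT S1 or dKO S7 and 3 without WT S2. The called share of the interferon genes was 27.3%, against 16.5% over all genes. Ifitm3 was at 237 and 236 CPM in the WT pair, against 392 and 504 in dKO and rose by 0.92 ± 0.11 (0.000317), while Ifit1 fell by 2.02 ± 0.42 (0.00727). Ifit1 changed by 1.39 against WT_Prmt1, so its direction depended on the control group, and its call was lost without dKO S7 (0.0508). Of 30 MHC and antigen presentation genes 7 rose and none fell, 23.3% against 16.5% over all genes. Without dKO S7 13 rose, without any other single library 4 rose, and without dKO S6 2 fell. Among those that rose was Gbp2 at 116 and 95.1 CPM in dKO compared with 56.3 and 64.9 in WT (0.80 ± 0.12, 0.00119). Cytokine receptor and SOCS genes gave 8 higher and 3 lower of 33 (5 higher without WT S1 or WT S2), among them the feedback inhibitor Socs3 (1.47 ± 0.16, 0.000188). Of 46 ribosome biogenesis genes 13 fell and none rose (median -0.15), with 2 falling without WT S2. The nucleolar protein Nop56 fell by 0.48 ± 0.07 (0.00129). Of 73 ribosomal protein genes 3 fell and 1 rose, and of 73 nuclear genes of oxidative phosphorylation 4 fell and none rose, shares of 5.48% each against 16.5% of all genes. The count of falling oxidative phosphorylation genes was 17 without dKO S6 and 0 without any other single library, and 5 ribosomal protein genes fell without dKO S6. Glycolysis genes split 4 and 4 of 24, with 1 falling without WT S2: hexokinase Hk1 was at 271 and 289 CPM in the WT libraries and 441 and 466 CPM in dKO and rose by 0.70 ± 0.07 (0.000114), and Pgam1 fell by 0.47 ± 0.09 (0.00419, but 0.0790 without WT S2). In the Myc network 1 of 13 genes was called, Mxd3 (-2.30 ± 0.26, 0.00021), a share of 7.69% against 16.5% over all genes.

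The largest rises over all genes included genes close to silent in WT. Clca3a1 (ENSMUSG00000056025, GRCm38 chromosome 3, 144729677 to 144760977, minus strand) was at 5.33 and 3.47 CPM in the WT pair, against 80.7 and 85.9 in dKO and rose by 4.25 ± 0.20 (adjusted p = 5.90e-07), with little spread in either group. Matn4, a matrix protein, was at 16.6 and 36.5 CPM in dKO compared with 0.889 and 0.278 in WT and rose by 5.52 ± 0.91 (0.00186). The retinoic acid hydroxylase Cyp26b1 was at 1.78 and 1.57 CPM in the WT libraries and 20.9 and 44.3 CPM in dKO and rose by 4.28 ± 0.54 (0.00038). Wwtr1, the Hippo effector TAZ, rose by 4.25 ± 0.64 (0.00117), Plscr2 by 5.36 ± 0.62 (0.000235), and Mmrn1, a megakaryocyte and stem cell list gene, by 4.61 ± 0.45 (8.27e-05). Flrt1 varied widely (4.34 and 16.9 CPM in dKO), and its call (0.0052) was lost without WT S1 (0.0508) or dKO S7 (0.0510). Among the largest falls, Bcat1 (ENSMUSG00000030268, GRCm38 chromosome 6, 144993835 to 145076184, minus strand), an enzyme that removes the amino group from branched-chain amino acids, was at 14.96 and 18.5 CPM in the WT pair, against 0.387 and 0.152 in dKO and fell by 5.93 ± 0.51 (3.81e-05). The symbol is unrelated to β-catenin. Hnf4a, a nuclear receptor with an antisense neighbour, was at 0.774 and 0.3796 CPM in dKO compared with 17.8 and 27.8 in WT and fell by 5.29 ± 0.41 (1.77e-05). The neurotrophic receptor Gfra2 fell by 5.91 ± 0.91 (0.00128), its relative Gfra1 fell by 4.57 ± 0.78 (0.00235), and the sodium channel subunit Scn4b by 5.84 ± 0.73 (0.000377). Many of these genes also stood far from WT in Hoxa9_KO. Mean CPM there was 70.1 for Clca3a1, 40.9 for Matn4, 23.7 for Plscr2, 102 for Mmrn1 and 0.947 for Hnf4a. None of these was called in dKO against Hoxa9_KO (adjusted p of 0.615 to 0.867). Flrt1 was at 0.413 CPM in Hoxa9_KO, and Bcat1 was lower in dKO than in Hoxa9_KO (-4.43 ± 0.50, 0.00672). Clca3a1 was at 92.6 and 89.8 CPM in Prmt1_KO. By chromosome, the called share ran from 14.0% on chromosome 12 to 19.3% on chromosome 6.

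Setting dKO against each single knockout tests where it differs from losing 1 gene. Against Hoxa9_KO 41 genes (0.248%) were higher and 167 (1.01%) lower in dKO, 1.26% in all. Against Bcat_KO 2614 (15.8%) were higher and 1916 (11.6%) lower, 27.4% in all. All these comparisons share the dKO libraries, so their counts are not independent. Bcat_KO also held less low-level signal: 17917 and 17540 genes had counts there, against 25120 and 24029 in dKO. Its olfactory and vomeronasal receptor genes summed to 15.2 and 11.2 CPM, against 90.8 and 85.9 in dKO. Of the 56 tested, 5 were called higher in dKO than in Bcat_KO. The part of this signal in the genes higher than in Bcat_KO was not tested. The Hoxa9_KO comparison rests on few libraries: its calls numbered 64 without Hoxa9_KO S5, 108 without dKO S7 and 355 without dKO S6.

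Many mitotic genes were lower in dKO than in either single knockout. Against Hoxa9_KO 27 of the 52 mitotic genes were lower and none higher, and against Bcat_KO 49 were lower and 1 higher. With only the dKO and Hoxa9_KO libraries fitted, edgeR called 0 genes, so none of the 27 was called in that fit. Cenpf was at 34.5 and 40.2 CPM in Hoxa9_KO versus 55.6 and 62.6 in Bcat_KO, so the dKO values given above were the lowest. It was lower in dKO by 1.53 ± 0.19 than in Hoxa9_KO (adjusted p = 0.00687) and by 2.19 ± 0.19 than in Bcat_KO (4.39e-05). Kif11 was at 98.7 and 119 CPM in Hoxa9_KO, and Bcat_KO held 146 and 131, with differences of -1.06 ± 0.14 (0.00812) and -1.41 ± 0.14 (8.42e-05). Stem cell genes differed in another way: 2 of 43 were higher in dKO than in Hoxa9_KO and none lower, whereas 35 were higher than in Bcat_KO and 2 lower. Tek was at 50.6 and 54.7 CPM in Hoxa9_KO versus 20.5 and 23.9 in Bcat_KO, and it differed by 0.37 ± 0.13 (0.272) and 1.61 ± 0.14 (4.25e-05). Of the B cell genes 7 of 25 were lower in dKO than in Hoxa9_KO, and none was lower than in Bcat_KO, where 9 were higher. Pax5 was at 15.2 and 27.4 CPM in Hoxa9_KO, and Bcat_KO held 4.32 and 3.58, with differences of -2.90 ± 0.46 (0.0175) and -0.47 ± 0.45 (0.478). Of the heat shock genes 4 of 20 were lower in dKO than in Hoxa9_KO and 12 lower than in Bcat_KO, with 3 higher.

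Some genes were called in the same direction against WT, Hoxa9_KO and Bcat_KO. There were 29 such genes (0.176%) higher in dKO and 141 (0.854%) lower, and 27 of the lower ones are mitotic genes of the list. These counts need a call against Hoxa9_KO, where 167 genes were lower in dKO, 55 without dKO S7, 36 without Hoxa9_KO S5 and 0 with only those 2 groups fitted. Hspa1b stood at 169 and 175 CPM in Hoxa9_KO versus 92.9 and 76.9 in Bcat_KO, so both of these groups were below WT. It was lower still in dKO (-3.16 ± 0.20, adjusted p = 0.000128, and -2.14 ± 0.20, 5.97e-05). In Prmt1_KO Hspa1b was at 3.80 and 3.39 CPM, below dKO, so such a low level was not limited to dKO. Cd27 was at 62.5 and 68.1 CPM in Hoxa9_KO, and Bcat_KO held 155 and 148 (-0.49 ± 0.08, 0.0172, and -1.71 ± 0.08, 2.44e-06). Impdh1, which makes guanine nucleotides, was at 210.0 and 206 CPM in the WT libraries and 71.7 and 65.1 CPM in dKO, 95.3 and 111 CPM in Hoxa9_KO versus 147 and 144 in Bcat_KO. It was lower in dKO by 0.59 ± 0.09 (0.0162) and 1.09 ± 0.09 (4.19e-05). The chemokine Ccl3 was at 76.98 and 62.7 CPM in the WT pair, against 9.72 and 6.301 in dKO, 14.9 and 19.7 CPM in Hoxa9_KO, and Bcat_KO held 36.4 and 40.3, and the splicing factor Srsf7 was lower by 0.40 ± 0.08 (0.0444) and 1.03 ± 0.08 (2.72e-05).

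On the higher side, Ces2g (ENSMUSG00000031877, GRCm38 chromosome 8, 104961718 to 104969537, plus strand), a carboxylesterase, was at 96.8 and 64.98 CPM in dKO compared with 17.57 and 14.7 in WT, 28.9 and 28.5 CPM in Hoxa9_KO, and Bcat_KO held 21.2 and 21.5. It was higher in dKO by 1.49 ± 0.18 (adjusted p = 0.00687) and 1.92 ± 0.18 (8.17e-05). The thrombin receptor F2r was at 174 and 158 CPM in the WT libraries and 357 and 292 CPM in dKO, 201 and 177 CPM in Hoxa9_KO versus 172 and 176 in Bcat_KO. It was at 89.5 and 78.3 CPM in WT_Prmt1, so the wild-type groups also differed, by about as much as dKO from WT. Cish, a feedback inhibitor of cytokine signalling, rose against WT by 1.07 ± 0.15 (0.000684), a call lost with WT_Prmt1 as control (0.0975). Cdkn1a was at 140.4 and 119 CPM in Hoxa9_KO, and Bcat_KO held 149 and 126, and was higher in dKO than in each (0.70 ± 0.12, 0.0289, and 0.62 ± 0.12, 0.00459).

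**Figure D4:**
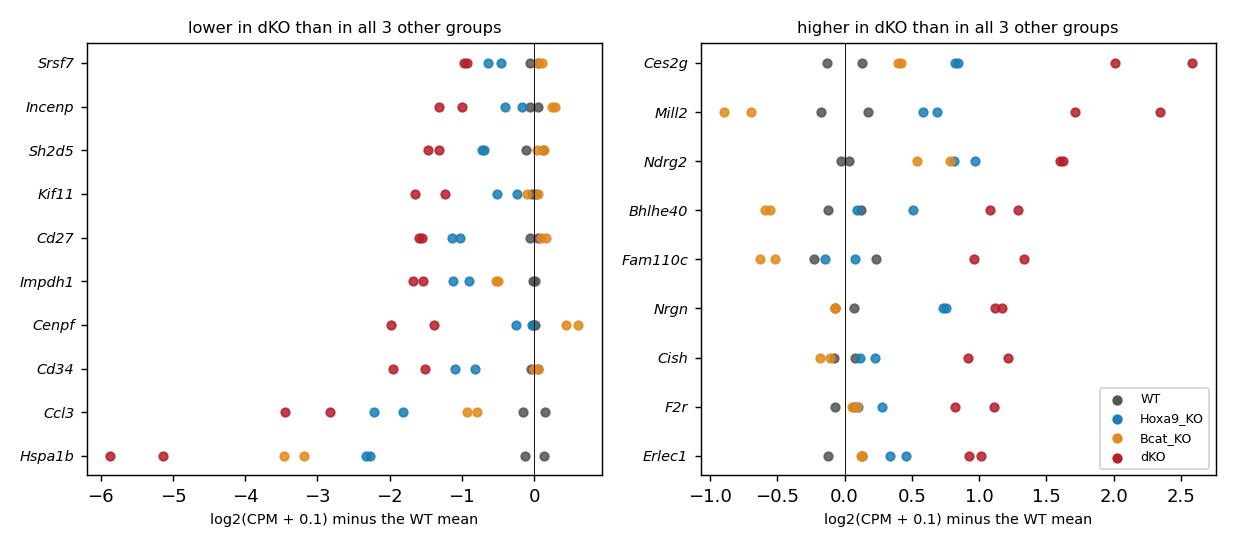
Log2(CPM + 0.1) of each library minus the WT mean for 10 genes lower (left) and 9 genes higher (right) in dKO than in WT, Hoxa9_KO and Bcat_KO; points are libraries, coloured by group. The dKO points lie beyond all others for each gene. The choice of these genes requires that for the WT libraries, and for each single knockout it requires a call in the same direction. Hoxa9_KO lies between WT and dKO for most of the lower genes.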

How the data were processed

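Bulk RNA-seq of LSK cells was deposited as raw counts per gene for 12 libraries in 6 groups of 2. Per the submitters' processing notes, the authors used Trim Galore 0.6.6, STAR 2.7.6a and featureCounts on GRCm38. No source used here gives the annotation release, the aligner settings or how strand was handled. Of the nonzero values, 67.1 to 75.9% were even, so both mates of a pair appear to have been counted and counting intervals would be too narrow. The table's Length column was used for gene lengths. Columns named control were read as WT. Of 55471 genes 55230 matched GENCODE M21 by identifier.

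Counts were filtered with filterByExpr (minimum count 10), scaled by TMM and fitted with edgeR 4.0.16 (R 4.3.3) in a quasi-likelihood model with 1 mean per group over all 12 libraries (6 residual degrees of freedom). P-values were adjusted by Benjamini-Hochberg over all 17063 genes, and X and Y genes were then left out. SE is the absolute log2 change over the square root of F. The code was tested on simulated counts.

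The genes compared and the 47 gene lists were chosen with earlier results of these data known, so they are not independent evidence. No set test was run. Named genes were Hoxa9, Ctnnb1 and Prmt1, the 15 largest changes per direction, up to 4 called members with the smallest p per list, up to 2 called members against a list's main direction, and the 10 per direction that ranked best among genes called against WT and both single knockouts. Large changes had to be protein coding, called, separated between groups and at a mean of at least 2 CPM. A few genes that this rule names are not reported here. Promoters came from RefSeq (GRCm38.p6), with windows for 11346 tested genes. In 5 of 7 windows checked, the first 20 bases after the start matched an annotated transcript of the gene.

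Alternatives were RLE and library-size scaling, TMM on autosomal nuclear genes without haemoglobin genes, no filter, a mean of at least 5 CPM, DESeq2 1.42.0, limma 3.58.1 voom, smaller fits, other control groups and leaving out each library. A robust spread estimate and leaving out immunoglobulin genes were added after seeing the data. Python 3.11.15, pandas 2.3.3 and matplotlib 3.10.9 were also used.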

Additional observations from a re-analysis of the deposited data

How the results depend on the processing

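Calls in dKO against WT numbered 2722 and stayed within 1.5 times of that under other scalings, filters, tools and fits. They rose to 4467 with WT_Prmt1 in place of WT, and ran from 1356 to 2533 when 1 library was left out. Library-size scaling gave 1240 higher and 1447 lower. For dKO against Hoxa9_KO, 208 calls became 604 with DESeq2, 808 without a low-count filter, 323 without immunoglobulin genes and 64 to 355 without 1 library. With only those 2 groups fitted, edgeR called 0 genes, with 1424 at an unadjusted p under 0.05. For dKO against Bcat_KO, 4530 calls became 2569 with only those 2 groups fitted and 2772 to 3371 without 1 library. For WT_Prmt1 against WT, 1109 became 1816 with DESeq2, 1784 with limma-voom, 1692 without a filter, 1939 with only those 2 groups fitted and 394 to 437 without 1 library. Leaving out a library leaves 1 in its group, assumed to vary like the others; beyond this, the cause of these shifts was not tested.

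Of 203 named genes, 156 kept call and direction in every fit without 1 library. Of 3438 gene values under alternatives 3229 kept both, 196 lost the call and 13 changed sign, each with another control group. With WT_Prmt1 as control these were Ccr2 (-0.0426), Clec9a (-1.24), Col1a2 (-3.22), Hist1h1c (0.12), Hlf (0.42), Ifi27 (0.0553), Ifit1 (1.39), Lair1 (-0.16), Scd2 (0.27), Txnip (0.38) and Wapl (-0.0065). With both wild-type groups they were Clec9a (-0.48) and Col1a2 (-2.24), and the cause was not tested. No paired analysis was possible because the columns carry S tags that match no replicate number in the labels. With 2 libraries a group, small changes in low genes may have been missed.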
